A study of Mus musculus with 6 samples.

Results

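Levels of 10 genes that make, store and sense transforming growth factor beta (TGF-beta) were compared between cultured mouse cartilage cells with and without a recombinase that deletes Nf2. The genes encode the ligands (Tgfb1, Tgfb2, Tgfb3), the receptors (Tgfbr1, Tgfbr2, Tgfbr3), the latent TGF-beta binding proteins (Ltbp1, Ltbp2, Ltbp3) and the TGF-beta-induced matrix protein (Tgfbi). They were chosen by gene symbol, with earlier results of these data known. All 10 were found among the 29510 symbols of the expression table, as 49 of its 85882 transcripts. RNA sequencing covered 6 libraries of primary chondrocytes kept in culture without a differentiation step. In all 6 libraries the cells carried Nf2 alleles flanked by loxP sites (Nf2f/f). The 3 control libraries carried no Cre, and the 3 libraries called cKO here carried Nf2f/f together with Prx1-Cre, a transgene driven by a Prx1 (Prrx1) enhancer that is active in limb mesenchyme. The comparison asks what loss of merlin, the protein made from Nf2, changes in limb-derived cells, and the series title names limb and thumb formation, primary cilia and Hedgehog signalling as its interests.

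TGF-beta ligands are secreted in a latent form, bound to their own propeptide, which is in turn linked to a latent TGF-beta binding protein that anchors the complex in the extracellular matrix. Integrins and proteases release the ligand, which binds the type II receptor Tgfbr2. Tgfbr2 then recruits and phosphorylates the type I receptor Tgfbr1, which activates Smad2 and Smad3, while the type III receptor Tgfbr3 (betaglycan) presents ligand, Tgfb2 above all, to the type II receptor. In cartilage the pathway is known for driving early chondrogenesis and for holding back hypertrophy.

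Promoters are shown for 4 of the 5 genes that passed the test given further on, those with a searched motif in the bases printed, so that they can be read beside the levels. They are RefSeq promoters of mouse build GRCm38.p6, from 120 bases before to 10 bases after the annotated start, read 5′ to 3′ on the gene's strand, with searched motifs in capitals. Ltbp1 has a promoter for each of its forms.
Tgfb2, chr1:186705980-186706109, minus strand: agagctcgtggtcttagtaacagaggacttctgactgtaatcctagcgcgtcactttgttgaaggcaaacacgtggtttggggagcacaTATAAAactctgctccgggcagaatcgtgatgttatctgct
Ltbp1 long form, chr17:75005409-75005538, plus strand: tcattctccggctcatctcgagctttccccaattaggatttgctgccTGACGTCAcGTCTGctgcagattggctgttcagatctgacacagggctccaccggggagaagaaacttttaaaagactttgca
Ltbp1 short form, chr17:75178661-75178790, plus strand: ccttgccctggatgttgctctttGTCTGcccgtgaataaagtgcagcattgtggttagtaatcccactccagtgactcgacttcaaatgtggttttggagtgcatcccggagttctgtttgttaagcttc
Ltbp3, chr19:5740780-5740909, plus strand: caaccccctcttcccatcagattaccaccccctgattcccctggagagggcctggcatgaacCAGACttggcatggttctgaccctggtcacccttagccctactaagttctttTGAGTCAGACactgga
Tgfbi, chr13:56609466-56609595, plus strand: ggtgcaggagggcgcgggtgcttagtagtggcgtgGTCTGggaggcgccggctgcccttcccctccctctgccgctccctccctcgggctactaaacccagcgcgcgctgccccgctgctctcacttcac
In Tgfb2 the capitals are a TATA box, spelled TATAAA. In the Ltbp1 long form they are a cyclic AMP response element, which reads the same on both strands, followed by a SMAD-binding core. That core is spelled CAGAC, and in the promoters of both Ltbp1 forms and of Tgfbi its reverse complement is seen. In Ltbp3 the capitals are a SMAD-binding core and, at the start, an AP-1 site (TGANTCA) that overlaps a further SMAD-binding core by its last letters.

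The search covered both strands of 300-base windows, 250 before to 50 after the start, and 8 of the 10 genes were matched, with 10 promoters in all. The TATA box of Tgfb2 began 31 bases before the start, and 13.6% of the 32851 promoters of that length hold those letters. The cyclic AMP response element of the Ltbp1 long form began 73 bases before its start, and 1.79% of promoters hold its letters, TGACGTCA. The AP-1 letters of Ltbp3 began 6 bases before the start, against 7.81% of promoters with a match. CAGAC was in 49.6% of all promoters, GGGCGG (GC box) in 35.7% and GGAATG (TEAD site) in 14.7%. GGAATG was in 0 of the 10 windows of these genes, and Tgfb1 held 6 GC boxes, Tgfbi 2 and Tgfb2 0. The GC content ran from 48.0% in Ltbp3 to 77.0% in Tgfb1, with a median of 52.7% over all promoters. A match is a description of letters and not of a bound site.

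The libraries were alike in coverage, with 12441 to 12697 genes at 1 FPKM or more (a level scaled for transcript length and library size). The depth is not stated, and an estimate from the spacing of low values was 17250000 to 19750000 fragments a library. Nf2 itself measured 16.7, 16.6 and 14.1 FPKM across the control libraries, against 17.5, 15.6 and 18.1 FPKM across the cKO libraries (limma adjusted p = 0.463). Transcript values do not resolve a floxed exon, so this level does not check the labels. Xist was low in control 2 (0.525 FPKM) and cKO 3 (0.0288 FPKM), beside 41.6 to 53.9 FPKM in the other libraries. Of 4 tendon markers, control 3 stood apart in Thbs4 (16.0 FPKM, beside 0 to 2.27 FPKM elsewhere) and Tnmd (3.82 FPKM, beside 0 to 0.276 FPKM), but not in Scx (9.90 FPKM, beside 8.59 to 10.7 FPKM) or Mkx (1.85 FPKM, beside 1.35 to 2.38 FPKM). The chondrocyte markers were high in both groups, and their summed level was 5215 to 6321 FPKM in control and 2354 to 2887 FPKM in cKO. All 10 of these markers fell. The labels do not state whether the replicates were separate animals or cultures, and the p-values therefore measure only the spread between these libraries. Part of that spread may be technical, but Xist split both groups, so the libraries of a group were not all repeats of 1 sample. In bulk RNA, fewer cells of a type and less RNA per cell cannot be told apart.

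Of the 10 genes, Tgfb2, Tgfbr2 and Ltbp1 rose in cKO, Tgfbi and Ltbp3 fell, and 5 did not pass limma at an adjusted p of 0.05. Among all 14080 genes tested, 12.2% were called, 7.6% as higher and 4.57% as lower. Of the called genes 62.5% were higher, a share that was 45.5% with median-of-ratios scaling and 47.5% with quantile normalization. The groups did not overlap for 6 of the 10 genes, against 35.1% of all genes tested. The median log2 change over the 10 genes was -0.05, beside 0.05 over all genes tested. Each of the 3 families thus held members that did and members that did not pass, and in the latent TGF-beta binding proteins 1 rose and 1 fell.

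**Figure D1:**
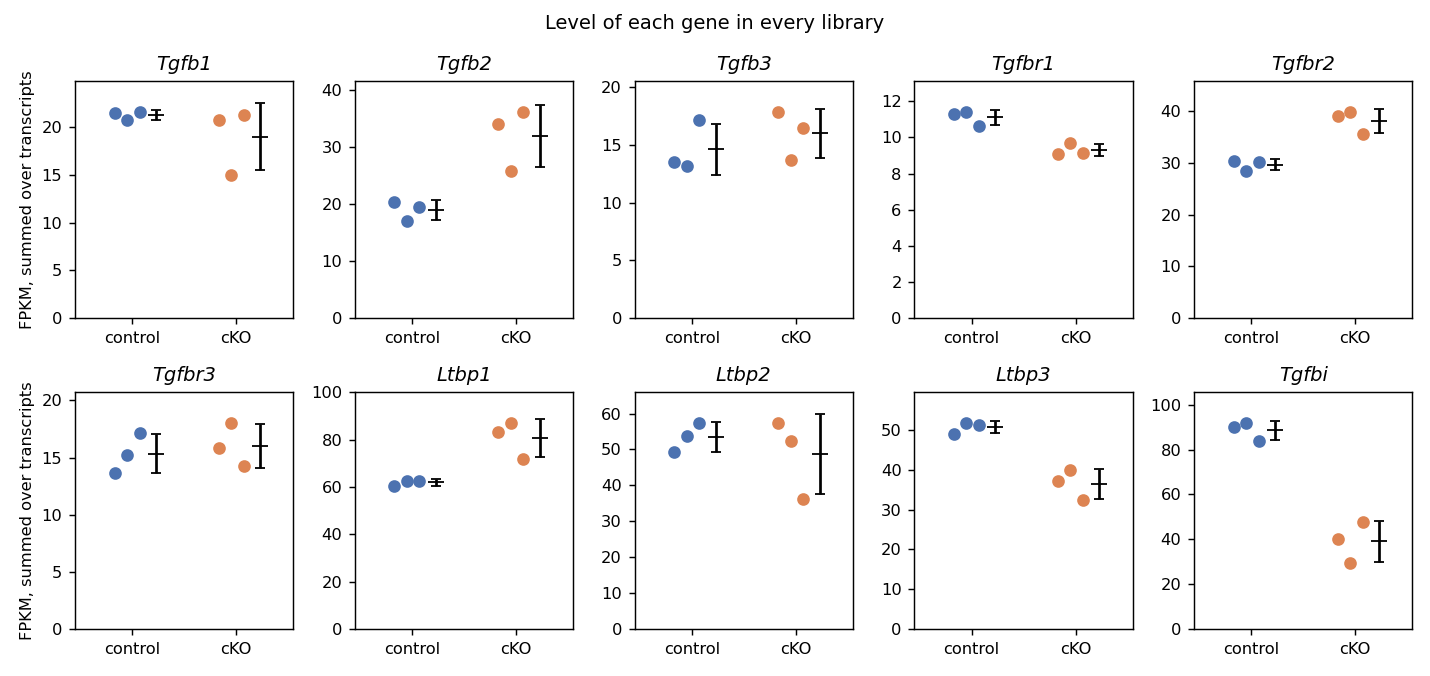
Level of the 10 genes in each library, in FPKM summed over the transcripts of a gene. Points are the 3 control (left) and 3 cKO (right) libraries, in order of replicate, with the mean and SD as a bar beside them, and the axes start at 0. Tgfb2, Tgfbr2 and Ltbp1 were higher in every cKO library, Tgfbr1, Ltbp3 and Tgfbi were lower in every one, and the other 4 genes overlapped.

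Tgfb2, the ligand that depends most on betaglycan for binding, had control levels of 20.4, 17.0 and 19.5 FPKM and cKO levels of 34.0, 25.8 and 36.1 FPKM. Every cKO library was above every control library. The mean rose from 19.0 ± 1.79 to 32.0 ± 5.46 FPKM (SD, n = 3 each), a log2 change of 0.73 ± 0.13 (SE, limma adjusted p = 0.0117). On this scale, 96.2% of the genes tested changed by less in size. The call was lost with no filter on low values (adjusted p = 0.0629) and without control 2 (adjusted p = 0.0546), with log2 changes of 0.73 and 0.65.

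Tgfb1, the most studied ligand of the family, measured 21.5, 20.7 and 21.6 FPKM across the control libraries, against 20.8, 15.0 and 21.3 FPKM across the cKO libraries. The groups overlapped, and cKO 2 was the low library. The log2 change was -0.17 ± 0.12 (limma adjusted p = 0.402), and it was -0.02 without cKO 2. Tgfb3, the third ligand, had control levels of 13.5, 13.2 and 17.2 FPKM and cKO levels of 17.9, 13.7 and 16.5 FPKM, again with overlap (log2 change 0.13 ± 0.13, limma adjusted p = 0.549).

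The make-up of the ligand pool therefore differed between the groups. In the control libraries Tgfb2 gave 36.8, 33.3 and 33.5% of the summed ligand FPKM, against 46.8, 47.3 and 48.9% across the cKO libraries. Tgfb1 was 38.9 ± 1.84% of it in control and 28.3 ± 0.684% in cKO, and Tgfb3 26.6 ± 2.59% and 24.0 ± 1.53%. The ratio of Tgfb2 to Tgfb1, which was chosen after its values were seen and not tested, was 0.891 ± 0.066 in control and 1.68 ± 0.043 in cKO. Within cKO this ratio ran only from 1.63 to 1.72, although both genes were lowest in cKO 2. The summed ligand level was 50.8 to 58.3 FPKM in control and 54.5 to 73.9 FPKM in cKO, and the groups overlapped.

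Tgfbr2, the ligand-binding kinase receptor, measured 30.3, 28.4 and 30.2 FPKM across the control libraries, against 39.0, 39.8 and 35.5 FPKM across the cKO libraries, without overlap. Its mean rose from 29.6 ± 1.09 to 38.1 ± 2.27 FPKM, a log2 change of 0.36 ± 0.07 (limma adjusted p = 0.0145). Without control 2 the adjusted p was 0.0690 and the log2 change 0.33. Tgfbr1, its signalling partner, went the other way by its values, with control levels of 11.3, 11.4 and 10.6 FPKM and cKO levels of 9.11, 9.71 and 9.13 FPKM. These groups did not overlap either, but the log2 change of -0.24 ± 0.07 did not pass (limma adjusted p = 0.0605). It passed with median-of-ratios scaling (0.0389) and with quantile normalization (0.0424). Tgfbr3, which presents ligand without kinase activity, had control levels of 13.7, 15.2 and 17.1 FPKM and cKO levels of 15.8, 18.0 and 14.2 FPKM, with overlapping groups (log2 change 0.06 ± 0.11, limma adjusted p = 0.767).

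The ratio of Tgfbr2 to Tgfbr1 was 2.67 ± 0.174 in control and 4.09 ± 0.193 in cKO, also chosen after its values were seen. The lowest cKO library, at 3.89, was above the highest control library, at 2.83. Tgfbr2 made up 52.8 ± 1.76% of the summed receptor FPKM in control and 60.1 ± 1.06% in cKO, Tgfbr1 19.8 ± 1.28% and 14.7 ± 0.691%, and Tgfbr3 27.3 ± 2.43% and 25.2 ± 1.34%.

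Ltbp1, which binds latent TGF-beta covalently and ties it to fibrillin and fibronectin, measured 60.4, 62.7 and 62.7 FPKM across the control libraries, against 83.2, 87.2 and 71.7 FPKM across the cKO libraries. Every cKO library was above every control library. The mean rose from 61.9 ± 1.34 to 80.7 ± 8.03 FPKM, a log2 change of 0.37 ± 0.08 (limma adjusted p = 0.0217). The call was lost in 7 of 16 alternatives, at adjusted p-values up to 0.0828, and among these were the fits without control 1 (0.0828), control 2 (0.0788), control 3 (0.0538) or cKO 1 (0.0636). Its log2 change stayed between 0.30 and 0.46.

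Ltbp3, which also carries latent TGF-beta and whose loss in mice is known to disturb skull and bone growth, had control levels of 49.1, 51.9 and 51.3 FPKM and cKO levels of 37.2, 39.9 and 32.5 FPKM. Here every cKO library was below every control library. The mean fell from 50.8 ± 1.49 to 36.5 ± 3.77 FPKM, a log2 change of -0.47 ± 0.08 (limma adjusted p = 0.0107). The call was lost without control 2 (0.0543) and when protein-coding transcripts alone were summed (log2 change -0.81, adjusted p = 0.200). Ltbp2, a family member that does not bind latent TGF-beta itself and works in microfibril assembly, measured 49.3, 53.7 and 57.4 FPKM across the control libraries, against 57.5, 52.5 and 36.3 FPKM across the cKO libraries. The groups overlapped, with cKO 3 lowest (log2 change -0.16 ± 0.16, limma adjusted p = 0.552).

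The summed level of the 3 latent TGF-beta binding protein genes was 166.1 ± 6.61 FPKM in control and 166.0 ± 22.1 FPKM in cKO, while its make-up differed. Ltbp1 was 37.3 ± 0.728% of it in control and 48.8 ± 2.15% in cKO, and Ltbp3 was 30.6 ± 0.557% and 22.1 ± 1.11%. The ratio of Ltbp1 to Ltbp3 was 1.23, 1.21 and 1.22 across the control libraries, against 2.24, 2.18 and 2.21 across the cKO libraries. The spread within a group was 0.0115 and 0.0261 (SD), far under the difference of 0.989 between the means. That small spread holds for FPKM summed over all transcripts, coding or not. Coding transcripts held only 11.4, 37.4 and 20.0% of Ltbp3 FPKM across the control libraries, against 17.3, 12.2 and 18.5% across the cKO libraries. The Ltbp1 to Ltbp3 ratio from coding transcripts alone was not examined. This ratio was picked after the values were seen, from 45 pairs of genes of which 26 had groups that did not overlap, so it is given without a test.

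**Figure D2:**
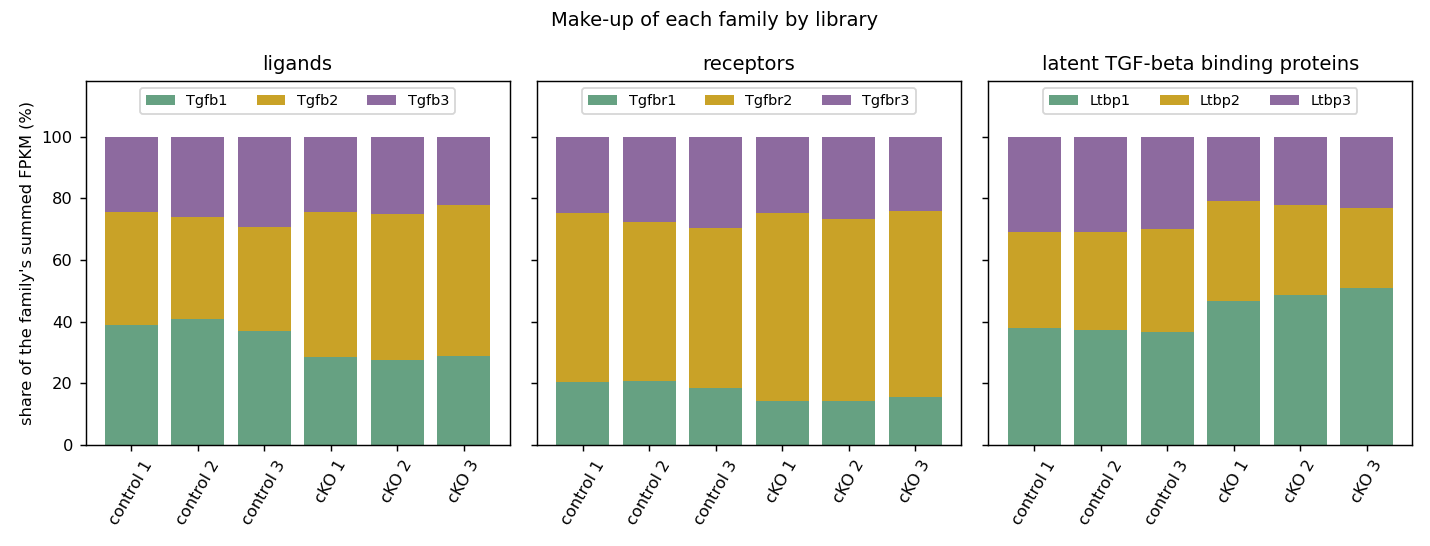
Share of each gene in the summed FPKM of the ligands, the receptors and the latent TGF-beta binding proteins, in percent, for each of the 6 libraries. Tgfb2 made up 33.3 to 36.8% of the ligands in control and 46.8 to 48.9% in cKO, and Ltbp1 36.6 to 38.0% and 46.8 to 51.1% of the binding proteins.

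Tgfbi, a secreted matrix protein that binds integrins and collagen and is named for its induction by TGF-beta, had control levels of 90.1, 92.0 and 84.0 FPKM and cKO levels of 40.3, 29.6 and 47.6 FPKM. The highest cKO library was far below the lowest control library. The mean fell from 88.7 ± 4.22 to 39.1 ± 9.07 FPKM, a log2 change of -1.20 ± 0.15 (limma adjusted p = 0.00294). On this scale, 98.7% of the genes tested changed by less in size. Tgfbi passed in all 16 alternatives, with log2 changes of -1.35 to -1.01 and adjusted p-values of at most 0.0357. The fall moved with the summed chondrocyte marker level given above, and the part of that shift in it was not tested.

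**Figure D3:**
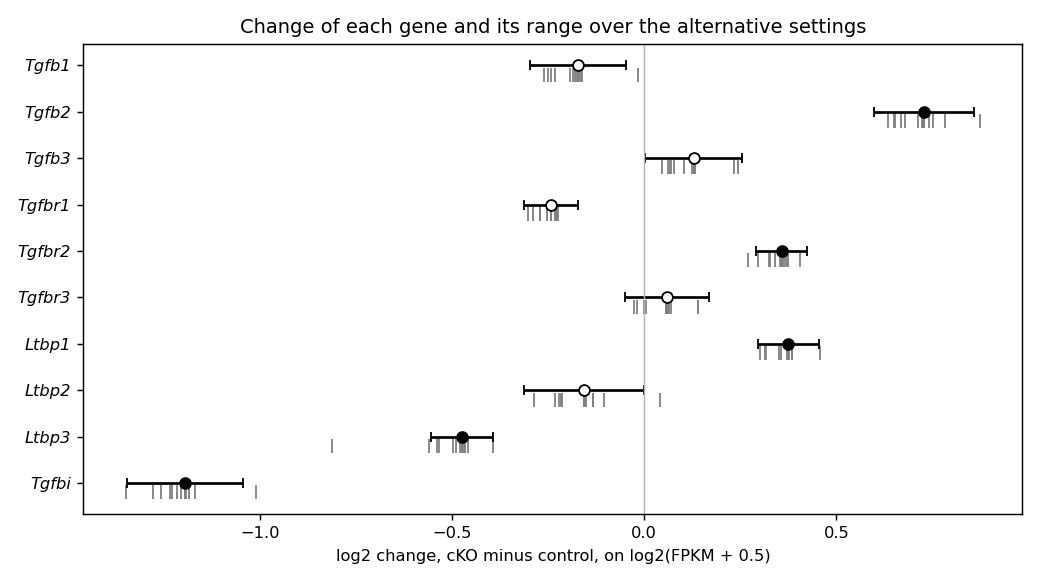
Log2 change (cKO minus control, on log2(FPKM + 0.5)) of the 10 genes, with the SE as a bar. Filled points passed limma at an adjusted p of 0.05, and grey ticks under each point are the 16 alternatives. Tgfbi lay near -1.20 and Tgfb2 near 0.73, and only Tgfbr3 and Ltbp2 had ticks on both sides of 0.

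The order of the levels differed between the groups. In control the means ran from Tgfbi at 88.7 FPKM through Ltbp1, Ltbp2 and Ltbp3 to Tgfbr2, Tgfb1, Tgfb2, Tgfbr3 and Tgfb3, with Tgfbr1 last at 11.1 FPKM. Neighbours that overlapped were Ltbp2 with Ltbp3, Tgfb2 with Tgfbr3, and Tgfbr3 with Tgfb3. In cKO the order was Ltbp1 at 80.7 FPKM, then Ltbp2, Tgfbi, Tgfbr2, Ltbp3, Tgfb2, Tgfb1, Tgfbr3, Tgfb3 and Tgfbr1 at 9.31 FPKM. There the libraries of every neighbouring pair overlapped except Ltbp1 with Ltbp2, Tgfb2 with Tgfb1, and Tgfb3 with Tgfbr1. All 10 genes were well expressed, with 59.7 to 95.3% of the genes tested at a lower control mean.

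Transcripts were then examined singly, since summed levels can hide a change of form. Of the 49 transcripts, 23 lay under a mean of 0.5 FPKM, 26 were tested and 0 passed limma over all 27761 transcripts, of which 0.609% were called. At an unadjusted p under 0.05 there were 5. They were the leading transcripts of Tgfb2, Tgfbr1, Tgfbr2 and Tgfbi and the decay-annotated transcript of Tgfbi. The share of all transcripts at that unadjusted level was not computed, so the count is only a description. In the authors' deposited table, 3 of the 49 transcripts were marked significant, beside 1881 marked among all 85882 transcripts. A q-value under 0.05 was listed for 5 of the 49. The share of all transcripts under that q-value was not computed, so this count too is only a description.

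Tgfb2 was made up almost wholly of 1 coding transcript, ENSMUST00000045288, with 93.9 ± 1.54% of its FPKM in control and 93.5 ± 1.49% in cKO. It measured 19.1, 16.2 and 18.1 FPKM across the control libraries, against 32.0, 23.7 and 34.2 FPKM across the cKO libraries (log2 change 0.72 ± 0.15, limma adjusted p = 0.125). In the authors' deposited table its q-value was 0.000448 at a ratio of 1.68. A second coding transcript, ENSMUST00000195201, holds an additional coding exon of 84 bases and stayed under 1 FPKM in every library.

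Tgfbr2 has 2 annotated coding transcripts that differ by 1 in-frame exon. ENSMUST00000061101, with 8 exons and 1776 coding bases, carries it, and ENSMUST00000035014, with 7 exons and 1701 coding bases, does not. The exon is printed because it is all that separates the coding parts of the receptor's forms, and it lies at chr9:116158271-116158345 on the minus strand of mm10.
Tgfbr2 exon 2: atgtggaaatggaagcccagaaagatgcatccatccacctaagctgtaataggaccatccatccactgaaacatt
The form with the exon held 88.8 ± 0.763% of Tgfbr2 FPKM in control and 90.2 ± 2.78% in cKO, a difference under the spread between cKO libraries. It had control levels of 27.0, 25.4 and 26.6 FPKM and cKO levels of 34.2, 35.7 and 33.1 FPKM, without overlap (log2 change 0.38 ± 0.06, limma adjusted p = 0.0747). In the authors' deposited table its q-value was 1.31e-15, at a ratio of 1.31 and without a mark as significant. The form without the exon measured 3.37, 2.95 and 3.60 FPKM across the control libraries, against 4.81, 4.08 and 2.43 FPKM across the cKO libraries, with overlap.

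Ltbp1 has a long and a short form, and the annotated starts of ENSMUST00000001927 (long) and ENSMUST00000112514 (short) lie 173343 bases apart. The promoters printed above were set on RefSeq starts near these, which do not fall on the same bases. The long form, ENSMUST00000001927 with 34 exons, had control levels of 24.4, 21.96 and 31.1 FPKM and cKO levels of 26.8, 41.6 and 37.6 FPKM. The 3 coding transcripts of the short form summed to control levels of 33.3, 38.8 and 29.9 FPKM and cKO levels of 54.1, 42.5 and 31.1 FPKM. Both forms overlapped between the groups, and the long form held 41.7 ± 7.33% of Ltbp1 FPKM in control and 44.1 ± 10.5% in cKO. The split varied more between libraries of 1 group than between the groups. The summed Ltbp1 level varied little between control libraries (SD 1.34 FPKM) and more between cKO libraries (SD 8.03 FPKM).

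Ltbp2 also split unevenly between libraries. ENSMUST00000002073, which holds a 129-base exon that ENSMUST00000163189 lacks, made up 52.3, 76.7 and 42.1% of Ltbp2 FPKM across the control libraries, against 37.9, 45.3 and 44.5% across the cKO libraries. Control 2 stood apart here.

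Most of the Ltbp3 level was assigned to transcripts that the table types as retaining an intron, with 77.1 ± 13.3% of FPKM in control and 84.0 ± 3.35% in cKO. The full-length coding transcript, ENSMUST00000081496 with 28 exons, was listed at 0 in 5 libraries and at 10.5 FPKM in control 2. In the authors' deposited table it was marked significant with a q-value of 1.20e-08, while limma gave a log2 change of -1.49 ± 1.24 (adjusted p = 0.635). The coding transcript ENSMUST00000236130, which covers the last 10 exons, measured 5.55, 8.87 and 10.2 FPKM across the control libraries, against 6.39, 4.83 and 5.92 FPKM across the cKO libraries. The sum over transcripts was steadier than any 1 of them.

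Both main transcripts of Tgfbi had lower values in every cKO library. The coding transcript ENSMUST00000045173 had control levels of 85.2, 87.6 and 80.3 FPKM and cKO levels of 38.2, 28.1 and 45.8 FPKM (log2 change -1.19 ± 0.18, limma adjusted p = 0.0621). ENSMUST00000225600, annotated for nonsense-mediated decay, measured 4.46, 4.11 and 3.68 FPKM across the control libraries, against 1.99, 1.48 and 1.67 FPKM across the cKO libraries (log2 change -1.05 ± 0.15, limma adjusted p = 0.0586). The authors' deposited table marked both as significant, with q-values of 6.18e-07 and 1.11e-08. The second held 4.597 ± 0.311% of Tgfbi FPKM in control and 4.49 ± 0.854% in cKO. The leading Tgfbr1 transcript, ENSMUST00000007757, measured 11.1, 11.2 and 9.93 FPKM across the control libraries, against 8.86, 9.59 and 8.77 FPKM across the cKO libraries (log2 change -0.23 ± 0.09, limma adjusted p = 0.325).

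The remaining tested transcripts gave no call either. The only transcripts above the filter for Tgfb1 (ENSMUST00000002678), Tgfb3 (ENSMUST00000003687) and Tgfbr3 (ENSMUST00000031224) followed their genes, with log2 changes of -0.19, 0.13 and 0.06. The noncoding Tgfb2 transcript ENSMUST00000193640 averaged 0.440 FPKM in control and 0.852 FPKM in cKO. For Ltbp1, ENSMUST00000112516 of the short form averaged 0.515 and 1.33 FPKM, the noncoding ENSMUST00000146839 near the start of the long form 1.10 and 1.88 FPKM, and the intron-retaining ENSMUST00000135750 0.981 and 0.907 FPKM. For Ltbp2, the intron-retaining ENSMUST00000168699 averaged 2.21 and 1.33 FPKM, and ENSMUST00000110254 reached 3.40 FPKM in control 2 and 1.96 FPKM in cKO 3 while staying at 0.405 FPKM or less elsewhere. The intron-retaining Ltbp3 transcripts ENSMUST00000237317, ENSMUST00000237280, ENSMUST00000235336 and ENSMUST00000236258 had log2 changes of -0.45, -0.23, -0.15 and -0.27.

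**Figure D4:**
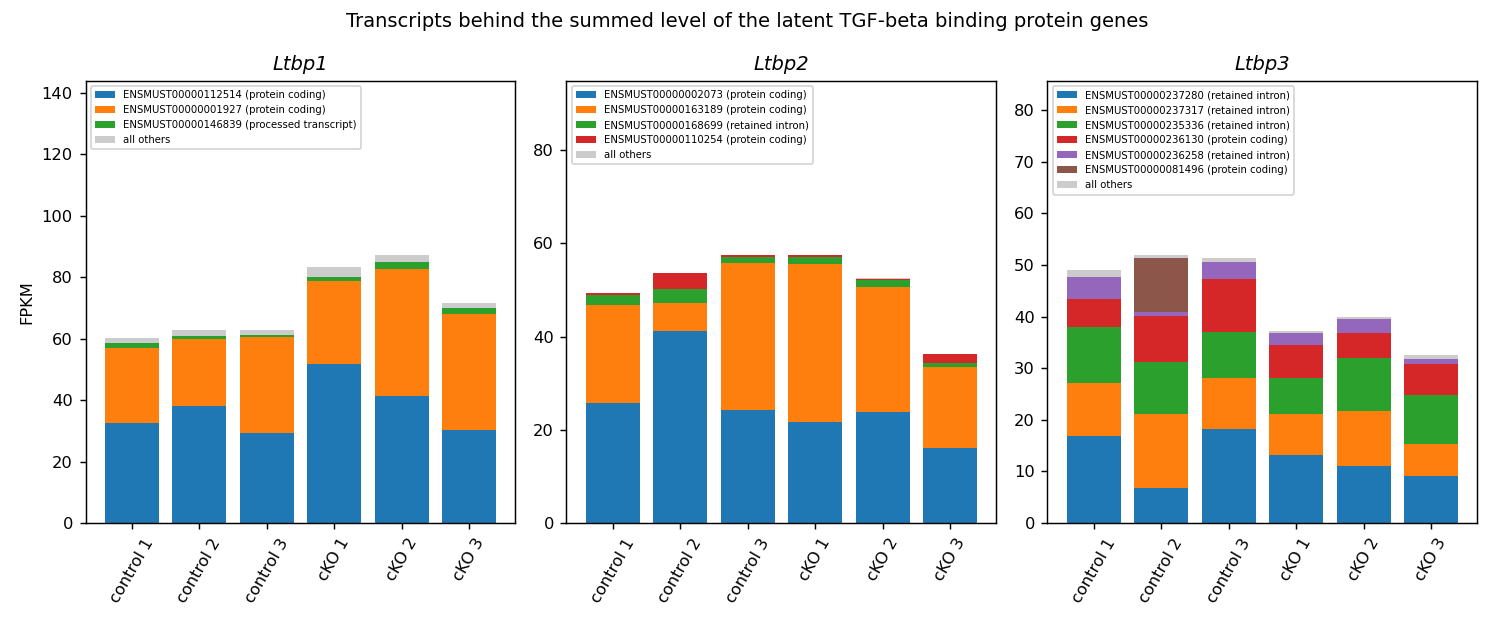
FPKM of the transcripts of Ltbp1, Ltbp2 and Ltbp3, stacked for each of the 6 libraries and coloured by transcript, with those under a mean of 1 FPKM in grey. The height of the Ltbp1 bars was 60.4 to 62.7 FPKM in control and 71.7 to 87.2 FPKM in cKO, and the full-length coding transcript of Ltbp3 appears in control 2 alone.

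The rest of the pathway was read from 4 lists of genes, also chosen with earlier results of these data known. Their counts can be set beside the shares over all genes tested, 7.6% called higher and 4.57% called lower. Among 18 tested genes for release and storage of the ligand, Thbs1 rose, 5 fell and 12 did not pass, with a median log2 change of -0.09. Dcn, a proteoglycan that binds TGF-beta, fell from 117 ± 20.4 to 43.0 ± 6.84 FPKM (log2 change -1.43 ± 0.14, limma adjusted p = 0.00117). Emilin1, an elastic-fibre protein that restrains processing of the TGF-beta precursor, fell from 51.2 ± 1.39 to 25.3 ± 4.52 FPKM. Itgb8 and Itgb3, 2 of the integrin beta subunits that pair with the alpha-v subunit and can bind the latent complex, fell as well, Itgb8 from 3.59 ± 0.119 to 1.77 ± 0.267 FPKM and Itgb3 from 2.49 ± 0.392 to 1.21 ± 0.123 FPKM. The more abundant Itgb1 (273 and 302 FPKM), Itgb5 (61.7 and 56.6 FPKM) and alpha-v itself, Itgav (39.0 and 42.8 FPKM), did not pass, and Itgb6 lay under the filter. Thbs1, thrombospondin 1, which can activate latent TGF-beta, rose from 1515 ± 170.2 to 2309 ± 208.0 FPKM (log2 change 0.61 ± 0.11, limma adjusted p = 0.0123). The Thbs1 call was lost with no filter and without control 2, while its log2 change stayed between 0.54 and 0.74 over 16 alternatives. The fifth that fell was Ltbp4, the remaining binding protein gene, named here after its values were seen, from 2.26 ± 0.210 to 1.47 ± 0.155 FPKM (limma adjusted p = 0.0409), and it passed in only 5 of 15 alternatives. Itgb3 did not pass with no filter (0.0607) or without control 2 (0.0576). Without control 2 the list held 0 higher and 3 lower genes.

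Among 18 co-receptors, decoys and receptor regulators, 4 rose, 1 fell and 13 did not pass, and the median was 0.10. Bambi, a decoy that resembles a type I receptor without a kinase, fell from 4.85 ± 0.340 to 2.26 ± 0.421 FPKM (log2 change -0.97 ± 0.13, limma adjusted p = 0.00441). Smad7, the inhibitory SMAD that brings ubiquitin ligases to Tgfbr1, rose from 6.06 ± 0.0141 to 9.64 ± 1.35 FPKM (log2 change 0.62 ± 0.10, limma adjusted p = 0.00993). Smurf2, one of these ligases, rose from 23.2 ± 1.35 to 29.6 ± 1.09 FPKM, and Usp15, a deubiquitinase of the receptor complex, from 10.04 ± 0.296 to 14.1 ± 1.64 FPKM. Pmepa1, which limits SMAD signalling, rose from 8.49 ± 0.480 to 11.2 ± 0.496 FPKM. Bambi and Smad7 passed in all 16 alternatives, while Smurf2, Usp15 and Pmepa1 missed the threshold in 2, 3 and 3 of them. Without control 1, 1 gene of this list was higher and 1 lower, and without control 2 the counts were 2 and 1.

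Of 16 signal transducers and nuclear partners, Ski rose and 15 did not pass, at a median of 0.03. Ski, a co-repressor that binds SMADs, went from 30.8 ± 1.32 to 37.4 ± 1.93 FPKM (log2 change 0.28 ± 0.07, limma adjusted p = 0.0326), a call lost in 10 of 16 alternatives. Tgif1, a repressor of SMAD targets, was at 23.1 ± 1.69 and 27.2 ± 1.66 FPKM (adjusted p = 0.0837), and Map3k7, the kinase TAK1 of the SMAD-independent branch, at 17.6 ± 0.653 and 19.4 ± 0.655 FPKM (0.190). Trim33, which acts on Smad4, was at 7.07 ± 0.272 and 6.19 ± 0.380 FPKM (0.192), and Ppm1a, a phosphatase reported for SMADs, at 14.9 ± 0.835 and 16.1 ± 0.491 FPKM (0.313). All of these p-values come from limma.

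Of 30 genes known as TGF-beta targets in other cells, 8 rose, 4 fell and 18 did not pass, beside 7.6% called higher and 4.57% called lower among all genes. The list's median was 0.05, close to that of all genes. Angptl4, a secreted lipase inhibitor, rose from 5.70 ± 0.178 to 11.98 ± 1.37 FPKM (log2 change 1.00 ± 0.10, limma adjusted p = 0.000859), and Tagln, an actin-binding protein of smooth muscle, from 78.2 ± 6.17 to 122 ± 16.0 FPKM (limma adjusted p = 0.00953). Ccn2, a matricellular protein that YAP also drives, fell from 362 ± 17.4 to 252 ± 23.5 FPKM (log2 change -0.53 ± 0.08, limma adjusted p = 0.00747), and Snai2, a zinc-finger repressor, from 21.9 ± 0.955 to 14.8 ± 1.79 FPKM (limma adjusted p = 0.00960). Angptl4 missed the threshold when protein-coding transcripts alone were summed (0.0681), Tagln with no filter (0.0555) and Snai2 without control 2 (0.0502). Smad7 and Pmepa1 are in this list too. Without control 1 the list held 3 higher and 2 lower genes, and without control 2 it held 4 and 1. Tgfbi is itself a target by name and fell, while Smad7 rose.

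**Figure D5:**
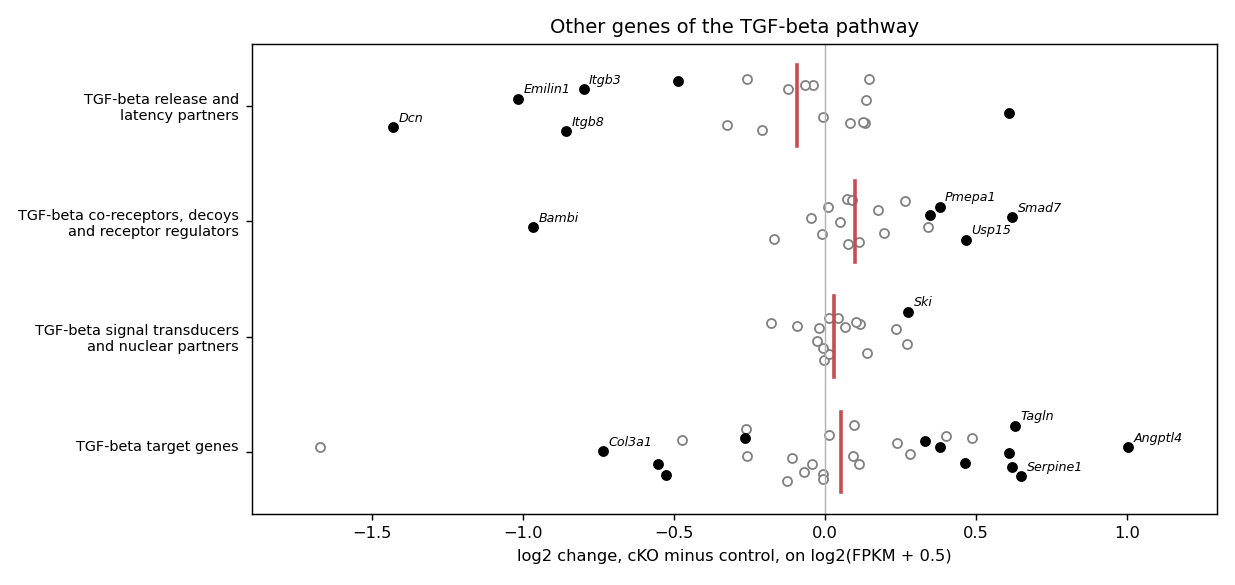
Log2 change (cKO minus control, on log2(FPKM + 0.5)) of every tested gene in the 4 pathway lists. Filled points passed limma at an adjusted p of 0.05, up to 4 of them per list are named, and the red line is the list's median, which lay between -0.09 and 0.10 in all 4 lists.

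Markers of other cell types moved with some of these genes. The smooth muscle list, which shares Acta2, Tagln and Cnn1 with the target list, summed to 197 to 260 FPKM in control and 294 to 391 FPKM in cKO, while Myh11, its defining gene, was at 0.0887 FPKM or less in every library. Of 4 tested smooth muscle markers, Tagln and Des rose and 2 did not pass. Of 7 tested fibroblast and perichondrium markers, which share Dcn, Col1a1, Col3a1 and Postn with the lists above, 4 fell and 3 did not pass, and their sum was 1190 to 1208 FPKM in control and 708 to 1159 FPKM in cKO. Epidermis and mesothelium markers summed to 33.0 to 41.6 FPKM in control and 60.2 to 127 FPKM in cKO, of which Msln gave most. In that list Msln rose, from 29.0 to 76.4 FPKM on average, Krt8 fell, from 1.32 to 0.326 FPKM (limma adjusted p = 0.0283), and Krt18 did not pass. The sum of adipocyte markers was 45.4 to 51.0 FPKM in control and 52.2 to 87.2 FPKM in cKO, with Adipoq at 0 in 5 libraries. Of 3 tested adipocyte markers, Pparg and Lpl rose and Fabp4 did not pass. Pparg averaged 9.45 FPKM in control and 21.7 FPKM in cKO (limma adjusted p = 0.00333), and Lpl 8.07 and 17.8 FPKM (limma adjusted p = 0.00510). Tendon markers summed to 12.9 to 31.6 FPKM in control and 10.9 to 12.3 FPKM in cKO, macrophage markers to 5.16 to 16.2 and 6.24 to 9.73 FPKM, and platelet markers to 4.51 to 4.75 and 6.67 to 15.9 FPKM. By limma, none of the tested tendon, macrophage and platelet markers passed, and Mkx, Thbs4 and Ppbp had an unadjusted p under 0.05. In the platelet list Ppbp averaged 3.54 FPKM in control and 8.90 FPKM in cKO (limma adjusted p = 0.0534), and the defining gene Pf4 averaged 0.264 and 0.137 FPKM. Endothelial markers, 5 of 6 in the table, summed to less than 1 FPKM in every library. The part of these shifts in the results for the 10 genes was not tested. Without control 3, the library high in Thbs4 and Tnmd, 4 of the 10 genes passed, 2 higher and 2 lower.

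For the members with the smallest p-values, the genes with the most similar profile were sought by Pearson's r on log2 values over the 6 libraries, among 8692 genes at a mean of 5 FPKM or more. The 6 points hold 2 groups, so r mostly follows the group difference and is given as a description. For Tgfbi they were Dixdc1 (0.998), Pcolce2 (0.997), Colgalt1 (0.995), Epyc (0.995) and Klhl13 (0.995). Epyc, a small proteoglycan of cartilage, had control levels of 103.6, 103.7 and 80.9 FPKM and cKO levels of 26.2, 18.8 and 33.8 FPKM, and so was lowest in cKO 2, as Tgfbi was. Pcolce2, an enhancer of procollagen processing, had a mean of 27.2 FPKM in control against 15.6 FPKM in cKO. For Ltbp3 they were Tfrc (0.991), Sdk2 (0.989), Il1rap (0.988), Tns2 (0.985) and Xiap (0.982). Tns2, a focal adhesion protein, measured 27.0, 26.0 and 26.2 FPKM across the control libraries, against 18.8, 19.3 and 14.9 FPKM across the cKO libraries, lowest in cKO 3, as Ltbp3 was.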

How the data were processed

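RNA of chondrocytes was sequenced in 3 control and 3 cKO libraries. Per the labels' protocols, 1.5 µg of Trizol-extracted total RNA was fragmented with magnesium and copied with dUTP. The submitters' processing notes name build mm10, and no aligner or quantifier is named in them. The authors deposited FPKM for each transcript and library, scaled per the file headers by length and library total. They also deposited, for each transcript, the ratio of mean FPKM (cKO over control), its log2, a p-value and a q-value from a test that the headers do not name. Transcripts marked significant by the authors had a q-value under 0.05 and at least a 2-fold change, with 0 exceptions among 1881.

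FPKM were summed per gene symbol. Genes and transcripts with a mean of at least 0.5 FPKM were compared on log2(FPKM + 0.5), a scale that shrinks the changes of low genes, with limma 3.58.1 (R 4.3.3), a mean-variance trend, no covariate, 2-sided, and Benjamini-Hochberg adjustment over all genes or all transcripts at 0.05. Every adjusted p comes from that test. FPKM are not counts, and 14.1 to 15.7% of low values lay within 2% of a whole number of fragments, so counts were not recovered and the depth is an estimate without an interval. Fits were tested on simulated data. All 49 member transcripts have the same coordinates in GENCODE M21. Python 3.11.15, pandas 2.3.3, NumPy 2.4.6 and Matplotlib 3.10.9 were used.

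The 10 members and the pathway and marker lists were chosen with earlier results of these data known. Named genes were the members, their transcripts with a mean of at least 0.5 FPKM, up to 5 genes with the smallest p of each pathway list, and the 5 genes most like each of the 2 members with the smallest p. Alternatives changed the pseudocount, filter, scaling, trend, block, an Xist covariate, the transcripts summed and the libraries used. Those for pathway genes, lists, ratios and single transcripts were added after seeing the data.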

Additional observations from a re-analysis of the deposited data

How the results depend on the processing

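Over the 10 genes and 16 alternatives each, 142 of 160 values kept their direction and their side of the threshold. The 12 lost calls concerned Ltbp1 (7), Tgfb2 (2), Ltbp3 (2) and Tgfbr2 (1), and the 2 gained ones Tgfbr1. Directions turned for Tgfbr3 with median-of-ratios scaling (log2 change -4.37e-05), without control 1 and without cKO 2 (-0.0271 to 0.14 over the fits that left out a library), and for Ltbp2 without cKO 3 (-0.29 to 0.0409), and these genes passed in none of the 16 alternatives. The number of the 10 genes called was 5, but 3 with no filter on low values, and 1 to 5 when a library was left out, with 1 (Tgfbi) without control 2. Control 2 was the control library low in Xist, and with an Xist covariate 5 of the 10 genes were called. Of all genes, 1713 were called, 62.5% of them higher; the count was 662 with no filter, 1134 with no mean-variance trend and 537 to 1324 with a library left out, and 45.5% were higher with median-of-ratios scaling and 47.5% with quantile normalization. Of all transcripts, 169 were called, 42 with no filter and 31 to 62 with a library left out. Same-numbered control and cKO libraries did not deviate together (correlations -0.0157, -0.0559 and -0.0463), and 0 of 3 control libraries correlated best with its own number. No pairing by number was seen, but 3 libraries a group are too few to exclude one. With a replicate block, 5 of the 10 genes, 1097 genes in all and 0 transcripts were called, and of the list genes named Ltbp4, Pmepa1 and Ski lost their calls. The cause of these differences was not tested. The 3 libraries a group and an unstated depth limit the precision.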
